A study of Sus scrofa with 14 samples.

Results

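The genes described here are those with a normalized count of at least 8000 in every one of 14 libraries of pig embryo-derived or reprogrammed cells. The block of 37 mitochondrially encoded genes was left out. Of 19588 genes in the deposited table, 71 met this rule, which is 0.362% of them. A normalized count is the number of reads on a gene divided by a size factor set for each library. A symbol was matched to 52 of the 71 genes and 19 are known only by their Ensembl identifier. The genes were chosen by their normalized counts in these same libraries, so their levels and their share of reads are given as a description and without a test.

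RNA-seq was performed on porcine embryonic stem cell like cells (pESCLC) and induced pluripotent stem cells (piPSC), with 2 samples in each of 7 groups. The pESCLC-primary samples were primary cells from porcine blastocysts, and pESCLC-F were 2 lines carried to passage 2 in a medium with FGF2 (F). Cells kept in F, named pESCLC-F in the labels and primary outgrowths in the text of the study, were moved to FL6i, which holds FGF2 and LIF with inhibitors of BMP, TGFB1, GSK3A and the kinases MAP2K1, MAPK8 and MAPK14, to give pESCLC-FL6i (1 line, passages 3 and 9). Some of those cells were then moved to FLB2i, which holds FGF2, LIF and BMP4 with inhibitors of GSK3A and TGFB1, to give pESCLC-FLB2i (1 line, passages 3 and 6). Lv-piPSC-F were lentivirally reprogrammed cells in F medium (2 samples, the second at passage 46, the passage of the first not given). Both are labelled ID6, the lentiviral line of the study. The methods describe F for piPSC as human embryonic stem cell medium with serum replacement. For blastocyst cells they describe another base medium with fetal bovine serum and more FGF2, also named F. FL6i and FLB2i are described on a further base, with serum replacement, insulin and IGF1. Comparisons of FL6i or FLB2i cells with pESCLC-primary therefore also differ in base, serum, insulin and IGF1, and these cannot be told apart from the inhibitors. Epi-piPSC-FLB2i (1 line, passages 9 and 12) and Epi-piPSC-FL6i (2 lines, passages 12 and 11) came from porcine fetal fibroblasts that received episomal plasmids carrying reprogramming genes and a hairpin RNA against p53. The study grew its lines on irradiated mouse embryonic fibroblasts. A pair of passages of 1 line is not a pair of independent cultures. The p-values below therefore set a group difference against the spread between these samples only. Passage differs within such groups. Between groups line and passage often differ along with medium or origin, and these cannot be told apart.

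The libraries held between 6193659 and 58878377 reads on genes, and the smallest number of reads behind any value of the 71 genes was 3062. The second pESCLC-FL6i sample, at passage 9, had the fewest reads and stood apart from the rest. It held the lowest value for 46 of the 71 genes, a count not taken over all genes. The same rule without this sample would have taken in 123 genes. Its summed level over 7 fibroblast marker genes was 289408, against 866 in the passage 3 sample of the same line and between 226 and 40852 in the other 12 libraries, with COL1A1 at 155568, COL1A2 at 73812 and COL3A1 at 53973. The other 4 marker genes of that list added the rest. Whether fibroblast RNA had a part in the low values of that sample was not tested, and in bulk RNA fewer cells of a type and less RNA per cell cannot be told apart.

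Of 14 listed pluripotency markers, 6 were matched in the table by symbol (NANOG, LIN28A, DNMT3B, ESRRB, KLF4 and PRDM14) and none of those 6 was among the 71 genes. The other 8 were not matched here and were not checked. The summed level of the 6 ranged from 45432 to 55917 in Lv-piPSC-F and from 29299 to 34543 in Epi-piPSC-FL6i. In both groups it was mostly that of DNMT3B and LIN28A. NANOG had 0.965 and 0.999 and PRDM14 had 0 in Epi-piPSC-FL6i, while ESRRB had 2819 and 3413, its highest values. In pESCLC-primary and pESCLC-F NANOG had 178 to 343. The sum ranged from 7322 to 8027 in pESCLC-primary and pESCLC-F and from 2972 to 3232 in Epi-piPSC-FLB2i. It ranged from 793 to 1899 in pESCLC-FLB2i and pESCLC-FL6i, and these 6 markers alone do not settle the label of those 4 samples. KLF4 gave 1653 of the sum in the second pESCLC-FL6i sample. The summed level of 6 endoderm markers was between 81068 and 212687 in pESCLC-primary and pESCLC-F and at most 1484 in the other groups. In pESCLC-primary and pESCLC-F it was mostly that of APOA1, with 68583 to 193978. GATA4, GATA6 and FOXA2 were also highest there, while AFP had 0 in both pESCLC-primary samples. The 71 genes are therefore called by their rule, as the most abundant genes shared by these cultures.

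Genes of this kind are the housekeeping core of a dividing cell. Ribosomal proteins assemble with ribosomal RNA into the subunits that make protein, and elongation and initiation factors such as EEF2 and EIF4A1 move the ribosome along the messenger RNA or open its 5′ end. Glycolytic enzymes turn glucose into pyruvate, actin and tubulin form the cytoskeleton, and chaperones such as HSPA8 and HSP90AB1 fold newly made or damaged proteins. Messenger RNAs of the translation machinery are known for a pyrimidine-rich start, through which growth signals regulate their translation.

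The largest family with symbols was that of the ribosomal proteins, with 13 of the 52 in the table. RNA binding and processing proteins gave 8 of 47, cytoskeletal proteins 6 of 29, translation factors 4 of 53, glycolytic enzymes 4 of 16, signalling adaptors 4 of 18 and chaperones 2 of 25. FTL (1 of 7 iron and redox genes) and PTMA (1 of 29 chromatin and replication genes) were the sole members of their lists. None of 84 nuclear-encoded mitochondrial genes and none of 24 membrane, matrix and vesicle genes reached the level in every sample. Genes outside these lists included TPT1, SRRM2, FASN, MATR3, SON, CRK and FLT3LG. The symbol FLT3LG is uncertain, because the RefSeq annotation of the same genome build held no gene of that name.

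The starts of the ribosomal protein genes are shown because they are a feature that the rule did not use. All 13 ribosomal genes had a RefSeq transcript start on Sscrofa11.1, and 6 of them (46.2%) held CTTTCC or CTTTTC, read in the direction of transcription, within 20 bases of it. Of 19556 protein-coding promoters, 559 (2.86%) held either motif in the same window of 40 bases. The windows run from 60 bases before to 20 bases after the transcript start, 5′ to 3′ on the strand of the gene, with the motif in capitals.
RPL10 (chrX:124927189-124927268, plus strand): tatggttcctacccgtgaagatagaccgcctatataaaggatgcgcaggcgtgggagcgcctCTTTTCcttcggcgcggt
RPLP1 (chr1:167296024-167296103, plus strand): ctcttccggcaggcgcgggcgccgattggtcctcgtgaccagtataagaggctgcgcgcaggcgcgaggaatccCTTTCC
RPS4X (chrX:58155160-58155239, minus strand): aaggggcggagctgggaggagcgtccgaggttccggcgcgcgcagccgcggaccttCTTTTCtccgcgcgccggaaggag
RPSA (chr13:24072491-24072570, plus strand): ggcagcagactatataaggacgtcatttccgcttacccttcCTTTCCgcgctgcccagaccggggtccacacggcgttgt
RPL6 (chr14:39302387-39302466, plus strand): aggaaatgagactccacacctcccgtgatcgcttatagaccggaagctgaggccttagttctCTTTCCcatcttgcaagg
RPS12 (chr1:30923373-30923452, minus strand): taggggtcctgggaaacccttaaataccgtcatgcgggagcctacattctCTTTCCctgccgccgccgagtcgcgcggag
The motif began 3 bases into the transcript of RPL10 and of RPL6, and 15 bases into that of RPLP1. It began before the annotated start in RPS4X, RPSA and RPS12. In a window from 250 bases before to 50 bases after the start, searched on both strands, CCGGAAG was found in 5 of the 13 ribosomal promoters (38.5%) against 11.2% of all, ATGGCGG in 3 (23.1%) against 4.72%, TATAAA in 4 (30.8%) against 10.7%, and GGGCGG in 5 (38.5%) against 51.5%. CTTTCC was found in that window in 5 (38.5%) against 24.4%, and CTTTTC in 3 (23.1%) against 21.1%. These are matches of letters. A promoter could be placed for only 50 of the 71 genes (70.4%), so no count is given for all 71. Of those 50, which include the 13 ribosomal genes, 9 (18.0%) held CTTTCC or CTTTTC in the window of 40 bases. GGGCGG was in the wider window of 35 of the 50 (70.0%), so the ribosomal values do not stand for the 71 genes.

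The 71 genes together took between 8.79% and 14.6% of the reads on genes, with a median of 12.9%. In pESCLC-primary they took 11.9% and 11.5%, in pESCLC-F 11.9% and 11.3%, and in Lv-piPSC-F 12.2% and 13.6%. The Epi-piPSC shares were 14.5% and 14.6% in FLB2i medium and 13.2% and 12.8% in FL6i medium, and pESCLC-FLB2i had 13.0% and 12.9%. The 2 pESCLC-FL6i samples had 12.9% at passage 3 and 8.79% at passage 9. Both Epi-piPSC-FLB2i samples lay above all others, and the 4 samples of pESCLC-primary and pESCLC-F lay below all others except the second pESCLC-FL6i sample. The group mean ranged from 10.8% ± 2.90 (SD, n = 2) in pESCLC-FL6i to 14.5% ± 0.00538 (SD, n = 2) in Epi-piPSC-FLB2i. Without the passage 9 sample the lowest group mean was that of pESCLC-F, at 11.6% ± 0.386 (SD, n = 2). The mitochondrial block took 3.64% to 8.51% of the reads, and with it outside the total the median share of the 71 genes was 13.6%.

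**Figure D1:**
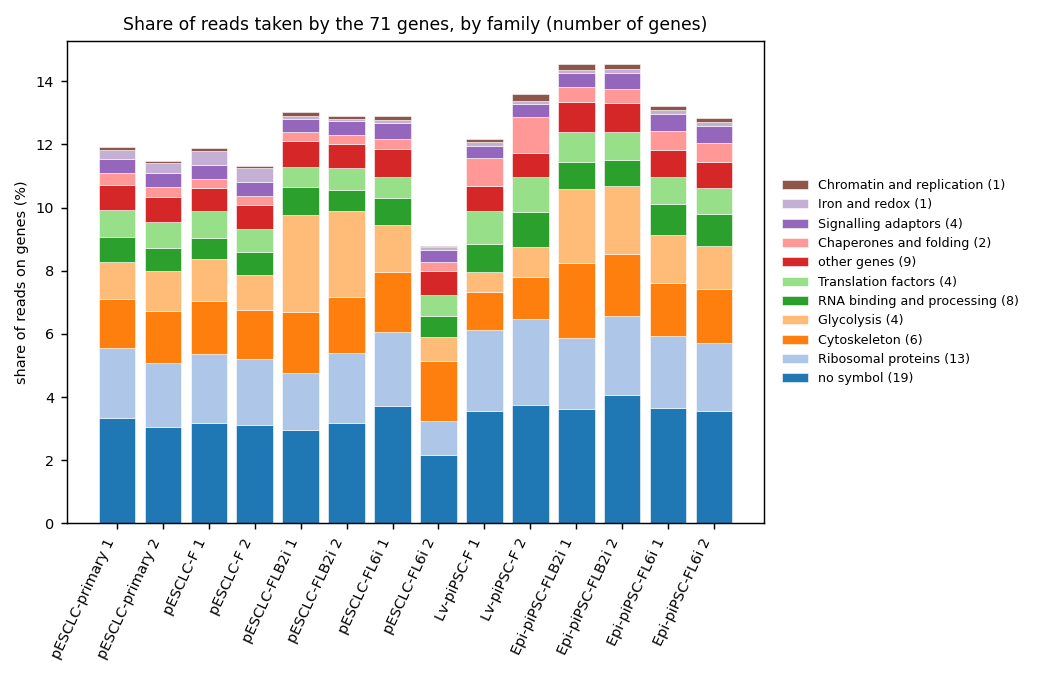
Stacked bars show the percentage of reads on genes taken by the 71 genes in each of the 14 samples, divided by family, with the number of genes of each family in brackets and those outside the named families pooled. The second pESCLC-FL6i bar, at 8.79%, is the lowest, the glycolysis section is tallest in pESCLC-FLB2i, and the chaperone section is tallest in Lv-piPSC-F.

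The largest part of the share was that of the 19 genes without a symbol, with 2.94% to 3.85% of reads in the group means. The ribosomal genes took from 1.71% of reads in pESCLC-FL6i to 2.62% in Lv-piPSC-F. In the second pESCLC-FL6i sample they took 1.09%, against 2.33% in the first. The 4 glycolytic enzymes took 2.88% in pESCLC-FLB2i and 2.25% in Epi-piPSC-FLB2i but 0.803% in Lv-piPSC-F. The 2 chaperones took 1.00% in Lv-piPSC-F and between 0.284% and 0.598% in the other groups. FTL alone took 0.451% in pESCLC-F and 0.296% in pESCLC-primary but between 0.0817% and 0.130% elsewhere.

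By median read count the first of the 71 genes was ENSSSCG00000004489, without a symbol, with between 107705 and 312870 normalized counts and a median of 206355. It was followed by GAPDH (median 88977), EEF2 (82987), TUBA1B (77308), ACTG1 (69363), ENO1 (68133), PKM (57291), TUBB (55868), RPLP0 (49764) and RPS2 (44007). Read counts grow with the length of the transcript, so these values do not order the genes by transcript number. RefSeq exon lengths, joined over all transcripts of a gene, were matched for 50 of the 71 genes, and ENSSSCG00000004489 was not among them. Among these 50 the median normalized count per kilobase was 61237 for GAPDH, 55708 for RPLP1, 47168 for TUBA1B and 45281 for RPLP0. It was 3680 for the actin crosslinker FLNA, whose exons cover 9400 bases. Reads of ACTB and ACTG1, of tubulins and of ribosomal protein genes with pseudogenes may be split or left out between near-identical copies, and their levels are uncertain to that extent.

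Distances between groups were taken between group means of log2(normalized count + 1), so a fold given for them is that of these log means. The distance between the highest and the lowest of the 7 groups had a median of 0.94 over the 71 genes, against 2.23 over the 16028 genes tested. These medians were 0.77 and 2.15 without the passage 9 pESCLC-FL6i sample. The rule itself narrows this distance, since no value of a chosen gene could lie under 8000. The highest group mean was that of Lv-piPSC-F for 31 of the 71 genes and the lowest that of pESCLC-FL6i for 43. Without the passage 9 sample these counts were 32 and 14, and pESCLC-FLB2i then had the lowest mean for 25 genes. None of these counts was taken over all genes, so no trait of the 71 genes is read from them. The genes nearest the threshold also depended on the passage 9 sample. It gave the lowest value of the last 3 genes inside, ENSSSCG00000008170 (8179), ENSSSCG00000025928 (8030) and ENSSSCG00000024974 (8022), and of the first 3 outside, RPS20 (7951), RPL7 (7914) and KXD1 (7880). RPS20 and RPL7 had medians over the 14 samples of 25109 and 28224, above the medians of many genes inside.

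**Figure D2:**
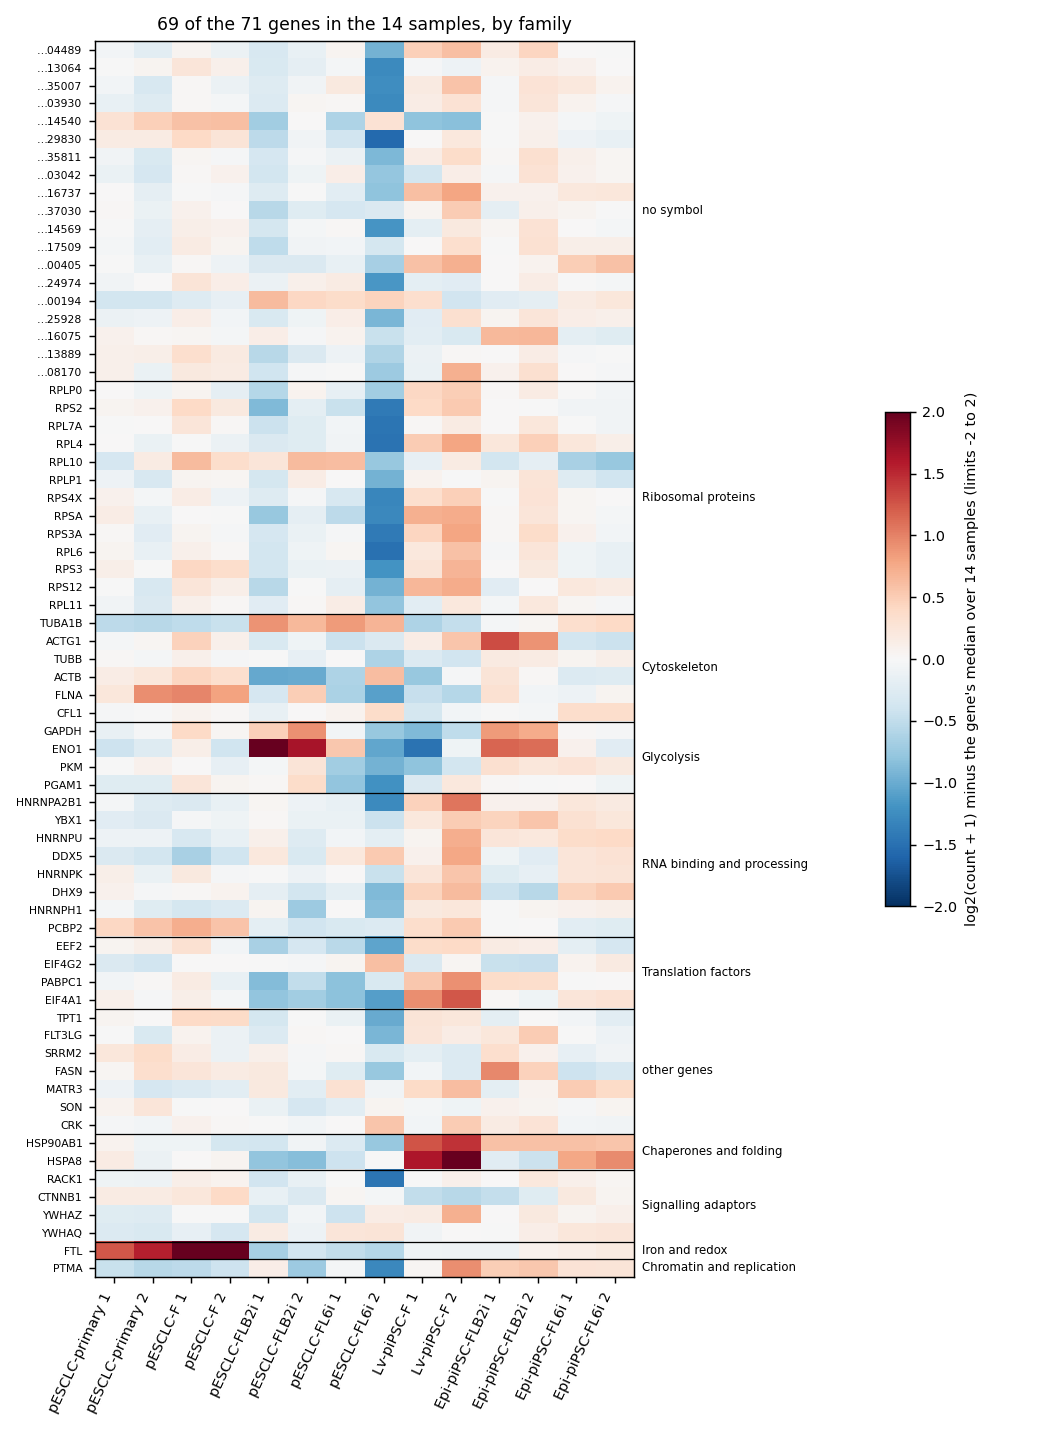
Each row is a gene, for 69 of the 71, each column a sample, and the colour is log2(normalized count + 1) minus the median of that gene over the 14 samples, with colours limited to the range from -2 to 2. Identifiers without a symbol are shortened to their last digits. The second pESCLC-FL6i column is blue for most ribosomal genes, FTL is red in the 4 pESCLC-primary and pESCLC-F columns, and HSPA8 and HSP90AB1 are red in Lv-piPSC-F.

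The chaperone HSPA8, a constitutive heat shock protein of the cytosol, had the widest distance between group means, 7.08-fold or 2.82 on the log2 scale. Its normalized counts were 69214 and 119730 in Lv-piPSC-F and 38886 and 43461 in Epi-piPSC-FL6i. The values were 25405 and 20980 in pESCLC-primary, 22763 and 23433 in pESCLC-F, 16968 and 22559 in pESCLC-FL6i and 19468 and 16852 in Epi-piPSC-FLB2i. The lowest values, 13123 and 12588, were those of pESCLC-FLB2i. Both Lv-piPSC-F samples lay above all others, both Epi-piPSC-FL6i samples came next, and both pESCLC-FLB2i samples lay below all others. HSP90AB1, an abundant cytosolic HSP90 chaperone, had 98582 and 111548 normalized counts in Lv-piPSC-F and between 60035 and 61606 in the 4 Epi-piPSC samples. It had between 24152 and 43070 in the 8 pESCLC samples, so the 3 origins did not overlap for this gene.

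FTL, the light chain of the iron store ferritin, had 47295 and 58396 normalized counts in pESCLC-primary and 94053 and 86098 in pESCLC-F. It had 12585 and 15258 in pESCLC-FLB2i, 14200 and 13353 in pESCLC-FL6i and 18735 and 18537 in Lv-piPSC-F. The Epi-piPSC samples had 18563 and 21162 in FLB2i and 21745 and 22500 in FL6i. The samples of pESCLC-primary and of pESCLC-F lay above the other 10, which were themselves within 12585 and 22500. The group means spanned 6.53-fold. The summed endoderm markers were also high in those 4 samples alone. The summed 7 trophectoderm markers were 3108 to 4646 there and at most 2039 elsewhere, though CDX2, GATA2, TFAP2A and TFAP2C peaked in other samples. The part of either list in the FTL level was not tested.

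ENO1, the glycolytic enzyme that makes phosphoenolpyruvate, had 297047 and 213971 normalized counts in pESCLC-FLB2i and 153004 and 148162 in Epi-piPSC-FLB2i. It had 50907 and 57119 in pESCLC-primary, 73483 and 51766 in pESCLC-F and 72518 and 58395 in Epi-piPSC-FL6i. The values were 99001 and 33193 in pESCLC-FL6i and 24334 and 63748 in Lv-piPSC-F. The 4 FLB2i samples lay above all others, while the pairs of pESCLC-FL6i and Lv-piPSC-F each differed widely and overlapped with the remaining groups. GAPDH, the glycolytic dehydrogenase often taken as a reference gene, had 124013 and 167279 in pESCLC-FLB2i and 160486 and 148645 in Epi-piPSC-FLB2i. It had 116827 and 91295 in pESCLC-F, 80062 and 87925 in pESCLC-primary, 90028 and 87256 in Epi-piPSC-FL6i, 86070 and 52666 in pESCLC-FL6i and 48221 and 62824 in Lv-piPSC-F. Its group means spanned 2.81-fold, and the FLB2i samples were again above the rest.

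EIF4A1, the helicase that opens the 5′ end of messenger RNAs, had 35571 and 44444 normalized counts in Lv-piPSC-F and between 8690 and 11594 in the 4 pESCLC samples from inhibitor media. The other 8 samples had between 17645 and 22879, so 3 levels without overlap were seen. TUBA1B, an alpha tubulin, had between 121048 and 144314 in those same 4 samples, 97511 and 101573 in Epi-piPSC-FL6i and 74945 and 79672 in Epi-piPSC-FLB2i. It had between 50621 and 56619 in the 6 samples of Lv-piPSC-F, pESCLC-F and pESCLC-primary. The narrowest distances between group means were those of CRK, an adaptor of tyrosine kinase signalling (1.26-fold), SON, a splicing cofactor (1.31-fold), and RPL11, a protein of the large ribosomal subunit (1.32-fold). These were 1.22, 1.31 and 1.26 without the passage 9 sample. SON was then wider than ENSSSCG00000025928 (1.27), ENSSSCG00000014569 (1.28), ENSSSCG00000003042 (1.30) and RACK1 (1.30). For CRK 12 samples lay between 9070 and 11476, and the second pESCLC-FL6i and second Lv-piPSC-F samples were higher, at 13932 and 13498.

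Among the ribosomal genes the widest distance between group means was that of RPSA, a small-subunit protein that is also known as a laminin receptor (3.11-fold). Its distance was 2.38-fold without the passage 9 sample, and RPL10 then had the widest, at 2.50-fold. RPSA had 43312 and 44316 normalized counts in Lv-piPSC-F and between 23672 and 31269 in the 8 samples of pESCLC-primary, pESCLC-F and both Epi-piPSC groups. The pESCLC-FL6i values were 18400 and 10773 and the pESCLC-FLB2i values 15658 and 23221, so the Lv-piPSC-F samples lay above all others and the pESCLC samples from inhibitor media below. RPS2, another small-subunit protein, had 58309 and 63458 in Lv-piPSC-F and 57779 and 50280 in pESCLC-F, against 32294 and 16497 in pESCLC-FL6i and 23810 and 38465 in its FLB2i counterpart. RPL10 of the large subunit had another order. Its values were 19210 and 17797 in Epi-piPSC-FL6i and 46271 and 38042 in pESCLC-F, with 46187 and 17665 for pESCLC-FL6i, 23118 and 26499 for Epi-piPSC-FLB2i and 35629 and 46620 for pESCLC-FLB2i. RPL6 had 9122 in the passage 9 pESCLC-FL6i sample and between 19834 and 38438 in the other 13, so its low value was that of a single library.

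The elongation factor EEF2 had 107328 and 109680 normalized counts in Lv-piPSC-F and 39933 to 65587 in the 4 pESCLC samples from inhibitor media. PABPC1, which binds the poly(A) tail, had 33154 and 42823 in Lv-piPSC-F and between 12524 and 18504 in those 4 samples. For both genes the Lv-piPSC-F samples were the highest of the 14 and the 4 inhibitor-medium pESCLC samples were the lowest. PKM, the pyruvate kinase, had 35253 and 29863 in pESCLC-FL6i and 32722 and 44453 in Lv-piPSC-F, against 51382 to 71424 in the other 10 samples, so it did not share the high FLB2i level of ENO1.

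PCBP2, which binds poly(C) stretches of RNA, had between 13698 and 17736 normalized counts in the 6 samples from blastocyst outgrowths or F medium and between 8254 and 10731 in the 8 samples from inhibitor media, without overlap. PTMA, a small acidic protein of chromatin, had 8795 in the passage 9 pESCLC-FL6i sample and 21066 in the passage 3 sample of the line, and reached 40920 in the second sample of Lv-piPSC-F against 22027 in the first. RACK1, a scaffold bound to the ribosome, had 15231 in the passage 9 sample and between 32110 and 48558 in the other 13.

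**Figure D3:**
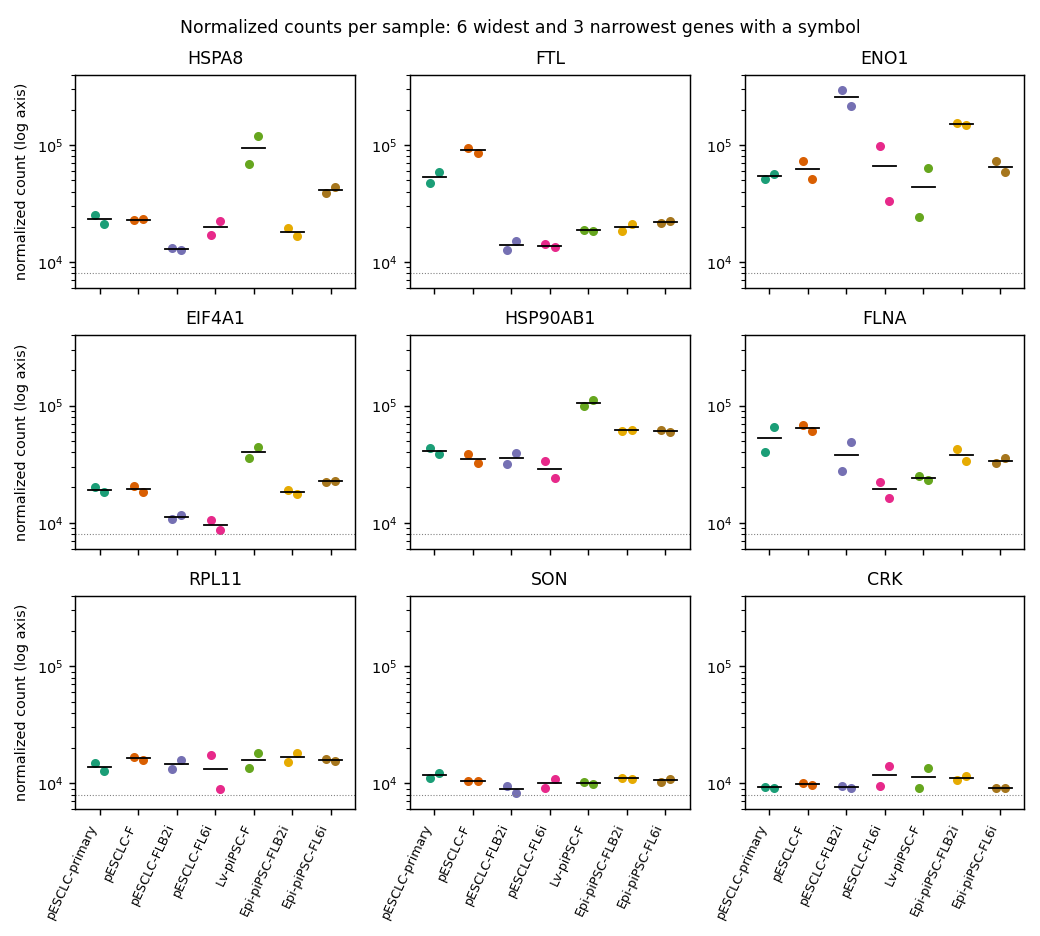
Points are the normalized counts of the 2 samples of each group on a log axis, black lines are arithmetic group means and the dotted line is the threshold of 8000. Between group means of the log2 values HSPA8, FTL and ENO1 span more than 6-fold, while RPL11, SON and CRK span at most 1.32-fold.

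Differences between groups were then tested. The main test was limma on log2(normalized count + 1), fitted for each pair of groups over all genes that reached 10 normalized counts in 2 or more of their 4 samples. A gene was called where its p, adjusted over all genes by the Benjamini-Hochberg method, was 0.05 or less. Where a fit left out 1 of 2 samples, the lone sample was assumed to vary like the other group. The rule for the 71 genes used their levels and not these differences, but it kept out any gene that fell under 8000 in a sample. The share called among the 71 is therefore bounded by how they were chosen, and it is printed beside the share of all tested genes without reading a difference from it. Over all 7 groups at once, 30 of the 71 genes were called by limma's F test, against 69.4% of 16028 genes tested. FTL had the lowest adjusted p (1.6e-05), followed by EIF4A1 (1.3e-04) and HSPA8 (1.7e-04). Without the passage 9 pESCLC-FL6i sample 41 of the 71 were called (76.9% of all genes). Without the passage 3 sample of that line 62 were called (81.8%), and without the first Epi-piPSC-FLB2i sample 18 were called (59.9%).

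**Figure D4:**
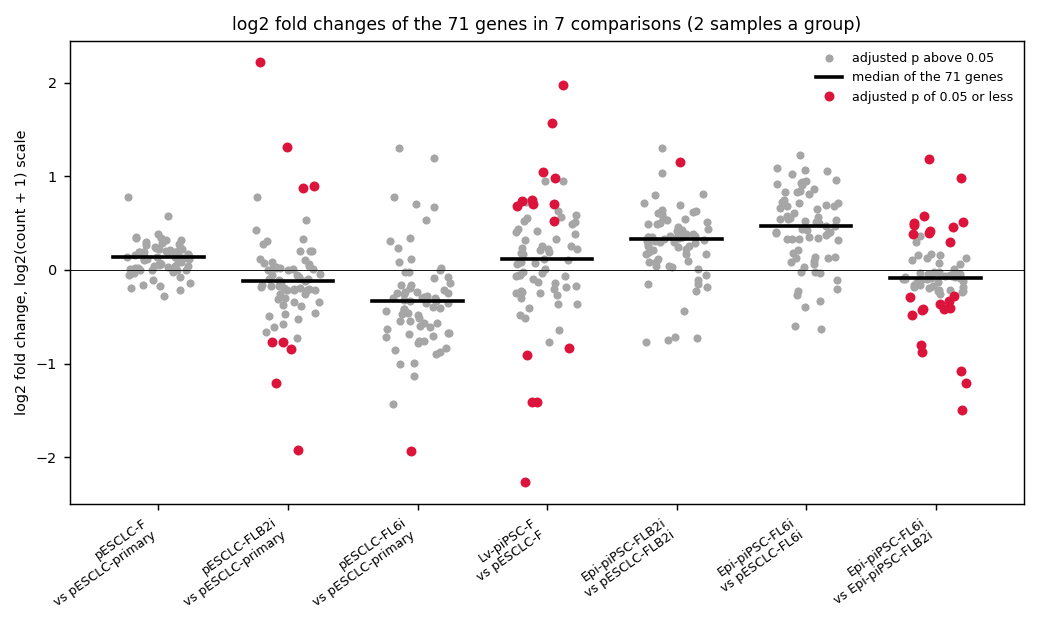
Each point is 1 of the 71 genes and its log2 fold change in 1 of 7 comparisons of 2 samples against 2, on the log2(normalized count + 1) scale, red where limma's adjusted p was 0.05 or less, with a black line at the median. The number of red points ranges from 0 to 25, and the widest changes are those of FTL, ENO1 and HSPA8.

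Between pESCLC-F and pESCLC-primary, the comparison of first lines in F with primary outgrowths, none of the 71 genes was called by limma, where 3.19% of 13977 genes were. Whether the lines came from the same outgrowths that were sequenced is not given. At an unadjusted p under 0.05 there were 5, DESeq2 called 1 (9.11% of all genes) and edgeR's quasi-likelihood test called 0 (3.21%). The lowest adjusted p was 0.083. The log2 fold changes lay between -0.28 and 0.78, the latter that of FTL. Their median was 0.14, against 0.02 for all genes, and scaling to total reads turned it to -0.03. The median for the ribosomal genes turned from 0.14 to -0.03 in the same way, so no direction is given.

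Between pESCLC-FLB2i and pESCLC-primary, the comparison of the FLB2i line with the primary cells, 9 of the 71 genes were called, against 28.5% of 14682 genes. Of these 4 were higher (15.1% of all genes) and 5 lower (13.4%). ENO1 rose by 2.23 ± 0.36 (SE) on the log2 scale, a 4.68-fold difference (limma adjusted p = 0.016), and both of its FLB2i values lay above both primary values. TUBA1B rose by 1.31 ± 0.30 (limma adjusted p = 0.035). ENSSSCG00000000194 had 25429 and 21712 normalized counts against 12634 and 12652, and rose by 0.89 ± 0.20 (limma adjusted p = 0.032).
FTL fell by 1.92 ± 0.24 on the log2 scale, a 3.79-fold difference (limma adjusted p = 0.0088). ACTB, a cytoplasmic actin, had 17270 and 17560 normalized counts against 39200 and 41262, and fell by 1.21 ± 0.20 (limma adjusted p = 0.017). HSPA8 fell by 0.84 ± 0.20 (limma adjusted p = 0.040), a call lost under both scalings to total reads and in edgeR. EIF4A1 and PCBP2, an RNA binding protein, each fell by 0.77. Of the whole list of glycolytic genes in the table, 7 of 16 rose and 1 fell, with a median log2 fold change of 0.82 against -0.02 for all genes. None of 51 ribosomal genes was called, with a median of -0.17. All 9 calls were lost when either pESCLC-primary sample was left out, where 5.23% and 2.43% of all genes were called. Without the first or second FLB2i sample 12 and 18 of the 71 were called, with 43.5% and 38.3% of all genes. The fibroblast marker sum was 1854 and 40852 in those samples, and its part was not tested.

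Between pESCLC-FL6i and pESCLC-primary 1 of the 71 genes was called, against 15.3% of 14820 genes, or 6.71% when only genes called as lower are counted. This was FTL, which fell by 1.93 ± 0.35 on the log2 scale (limma adjusted p = 0.035), with both FL6i values below both primary values. The median log2 fold change of the 71 genes was -0.34, against -0.04 for all genes, and that of the ribosomal genes was -0.68. Without the passage 9 sample these medians were 0.00 and -0.01, and 15 of the 71 genes were called (37.4% of all genes). Among the 15, FTL, FLNA, EIF4A1, ACTB, PABPC1, PCBP2, PKM and PGAM1 were lower in the passage 3 sample, and TUBA1B, ENO1, DDX5 and YWHAQ were higher. ENO1 was higher by 0.88 and TUBA1B by 1.38 in that setting. Without the passage 3 sample 50 were called (54.1%), and without either primary sample no gene of the whole table was called. The comparisons with pESCLC-primary share those 2 samples, as those below share pESCLC-F, pESCLC-FLB2i, pESCLC-FL6i and Epi-piPSC samples with each other, so the results are not independent.

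Between Lv-piPSC-F and pESCLC-F, 2 origins in media that are both named F, 15 of the 71 genes were called, against 40.5% of 14239 genes. Of these 10 were higher (20.0% of all genes) and 5 lower (20.5%). The F media described for piPSC and for blastocyst cells differ in base, serum and FGF2, so origin and medium cannot be told apart here. Both Lv-piPSC-F samples carry the label of the same line. HSPA8 rose by 1.98 ± 0.31 (SE) on the log2 scale, a 3.94-fold difference (limma adjusted p = 0.012). HSP90AB1 rose by 1.57 ± 0.21 (limma adjusted p = 0.0087), and EIF4A1 by 1.04 ± 0.19 (limma adjusted p = 0.017). For each of these genes both Lv-piPSC-F values lay above both pESCLC-F values. HNRNPA2B1 (0.98), MATR3 (0.75), RPSA (0.73), RPL4 (0.71) and HNRNPH1 (0.53) also rose on the log2 scale, 3 of them RNA binding proteins of the nucleus and the other 2 ribosomal.
FTL fell by 2.27 ± 0.17 (limma adjusted p = 0.0040), a 4.83-fold difference. FLNA had 25018 and 23281 normalized counts against 67843 and 60489, and fell by 1.41 ± 0.17 (limma adjusted p = 0.0075). ENSSSCG00000014540 had 16660 and 16234 against 43403 and 43891, and fell by 1.41 ± 0.15 (limma adjusted p = 0.0058). GAPDH fell by 0.91, and CTNNB1, the beta-catenin of adherens junctions and WNT signalling, by 0.83.
Over the whole lists, 16 of 25 chaperones rose and 3 fell (median 1.18), 26 of 53 translation factors rose and 1 fell (median 0.72) and 13 of 52 ribosomal genes rose and none fell (median 0.50). Of 16 glycolytic genes 1 rose and 6 fell (median -1.02), with a median over all genes of -0.02. The calls on the 71 genes were lost when either pESCLC-F sample was left out, where 0 and 13 of all genes were called. Without the first or second Lv-piPSC-F sample 35 and 24 of the 71 were called, with 54.1% and 52.2% of all genes. The fibroblast marker sum was 226 in the first Lv-piPSC-F sample and 20673 in the other, and its part in these differences was not tested.

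Between Epi-piPSC-FLB2i and pESCLC-FLB2i, 2 origins in FLB2i, 1 of the 71 genes was called, against 10.9% of 14397 genes, or 4.24% when only genes called as higher are counted. ACTB had 42021 and 35813 normalized counts against 17270 and 17560, and rose by 1.16 ± 0.21 (SE) on the log2 scale (limma adjusted p = 0.038). In the fit on all 14 samples its adjusted p was 0.068. The median log2 fold change of the 71 genes was 0.33, with 60 of them above 0, against -0.01 for all genes. Of the whole list of chaperones 8 of 25 rose and none fell, with a median of 0.84, while HSP90AB1 and HSPA8 had 0.80 and 0.49 and were not called. No gene of the whole table was called when either Epi-piPSC-FLB2i sample was left out. Without the first or second pESCLC-FLB2i sample 13 and 25 of the 71 were called, with 47.3% and 40.8% of all genes.

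Between Epi-piPSC-FL6i and pESCLC-FL6i, 2 origins in FL6i, none of the 71 genes was called by limma, where 12.3% of 14452 genes were. At an unadjusted p under 0.05 there were 7, DESeq2 called 9 (26.5% of all genes) and edgeR called 0 (8.82%). The median log2 fold change was 0.47, and 0.72 for the ribosomal genes, against -0.05 for all genes. Without the passage 9 sample these medians were 0.09 and 0.04, and 33 of the 71 genes were called (60.0% of all genes). In that setting HSPA8 was higher by 1.28, EIF4A1 by 1.09, PKM by 0.93 and HSP90AB1 by 0.84 on the log2 scale, while RPL10 (-1.32), ENO1 (-0.61) and TUBA1B (-0.48) were lower. Without the passage 3 sample 61 were called (72.6%). Both comparisons of origin in inhibitor media use pESCLC samples of 1 line each.

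Between Epi-piPSC-FL6i and Epi-piPSC-FLB2i, 2 media after the same reprogramming method, 25 of the 71 genes were called, against 61.0% of 14252 genes. Of these 11 were higher in FL6i (30.4% of all genes) and 14 lower (30.6%). The lines differed along with the medium, so line and medium cannot be told apart here. In 1 fit on all 14 samples, which share 1 estimate of the spread, 5 of the 71 were called, with 27.9% of all genes. This was the comparison with the tightest duplicates, with a median SE for the 71 genes of 0.12 on the log2 scale against 0.14 to 0.41 in the other 6. HSPA8 rose by 1.18 ± 0.13 (limma adjusted p = 1.3e-04). DHX9, an RNA helicase, had 22249 and 23450 normalized counts against 12099 and 11111, and rose by 0.98 ± 0.10 (limma adjusted p = 1.2e-04). EIF4G2, a translation initiation factor, had 28683 and 30661 against 20064 and 19797, and rose by 0.57 ± 0.11 (limma adjusted p = 0.0022).
ACTG1, a cytoplasmic actin, had 53871 and 51577 normalized counts against 172034 and 129307, and fell by 1.50 ± 0.18 (limma adjusted p = 2.3e-04). ENO1 fell by 1.21 ± 0.17 (limma adjusted p = 5.3e-04) and GAPDH by 0.80. FASN, the fatty acid synthase, had 11460 and 12216 against 29707 and 21035, and fell by 1.08 ± 0.16 (limma adjusted p = 6.9e-04). For HSPA8, DHX9, EIF4G2, ACTG1, ENO1 and FASN the samples of the 2 media did not overlap.
Other called genes included the RNA binding proteins HNRNPK (0.46) and DDX5 (0.42), CTNNB1 (0.48) and CFL1 (0.38), an actin severing protein, which rose, and RPLP1 (-0.48), RPL10 (-0.42), EEF2 (-0.41), ACTB (-0.41), PABPC1 (-0.36), SRRM2 (-0.33) and CRK (-0.27), which fell.
Over the whole lists 8 of 16 glycolytic genes fell and 2 rose (median -0.36), and 22 of 47 RNA binding genes rose and 5 fell (median 0.22). Of 51 ribosomal genes 4 rose and 7 fell (median -0.10). The count for the 71 genes was 41 and 33 without the first or second Epi-piPSC-FLB2i sample, with 58.6% and 60.4% of all genes. It was 10 and 9 without the first or second Epi-piPSC-FL6i sample, with 54.1% and 51.6%.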

How the data were processed

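The authors prepared stranded mRNA libraries, aligned the reads with TopHat2 2.1.0 to the Sscrofa11.1 build, used HTSeq with default settings to count reads per gene, and applied the size factors of DESeq2. The annotation release was not given in the sources used here. The deposited signal is these normalized counts, 1 column per sample, without pooling. Each value was a whole multiple of the smallest value above 0 in its column (largest deviation 1.8e-09 reads), which gave back the whole reads used for shares and count tests. Per-sample totals ranged from 6193659 to 58878377 reads, and their sampling error covers counting only.

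The 71 genes were those with at least 8000 normalized counts in all 14 samples outside the mitochondrial block of 37 identifiers. The genes, family lists and named-gene rules were chosen with earlier results of these data known. Symbols came from an Ensembl table (14151 of 19588 identifiers). Named genes were the 10 with the highest median, the 6 widest and 4 narrowest across group means, in each comparison the 3 called genes that rose and the 3 that fell most without overlap of groups, up to 4 genes of each family, and 3 genes on each side of the threshold. Further called genes were named after their values were seen. Results on 2 of the 71 genes are not reported here by name.

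The main test was limma 3.58.1 (R 4.3.3, trend) on log2(normalized count + 1), over genes that reached 10 normalized counts in 2 or more samples. It was run in 7 pairwise fits and 1 over all 14 samples. The plan assumed normalized values only, while the study's test, DESeq2, needs counts. Limma was kept as the main test after whole reads had been recovered. A fold change on this scale understates that of low genes. DESeq2 1.42.0 and edgeR 4.0.16 were run on the recovered reads. The alternatives were pseudocounts of 0.1 and 5, other filters, 3 other scalings, a replicate block, 1 shared fit and leaving out each sample. Scripts were tested on simulated data. Duplicates differed by more than sampling noise. RefSeq exons and transcript starts came from the annotation of Sscrofa11.1, and the start shared by most transcripts of a gene was used. HTSeq's default counts only reads in 1 orientation to the gene. Whether that orientation fits the stranded libraries was not tested, so antisense and overlapping genes are uncertain.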

Additional observations from a re-analysis of the deposited data

How the results depend on the processing

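None of the 20 fold changes named from the pairwise comparisons reversed under any alternative. Of 220 refitted values that used all samples 207 stayed called and 13 did not, and of 80 that left out 1 sample 52 stayed called and 28 did not. Replicate numbers did not pair the samples in most groups. The correlation of deviations was over 0.1 in 1 of 21 pairs of groups (-0.08 to 0.36), that of pESCLC-FLB2i with pESCLC-FL6i. In both of these groups the second sample was of a later passage. The percentage after each count below is that of all tested genes called in the same setting. With the replicate number as a block, calls among the 71 genes were 2 (24.7%) for pESCLC-FLB2i and 0 (15.5%) for pESCLC-FL6i against pESCLC-primary, and 0 (4.49%) for Epi-piPSC-FLB2i against pESCLC-FLB2i. DESeq2 called 1 gene (9.11%) for pESCLC-F and 6 (25.3%) for pESCLC-FL6i against pESCLC-primary, 28 (48.1%) for Lv-piPSC-F against pESCLC-F, 14 (21.4%) for Epi-piPSC-FLB2i against pESCLC-FLB2i, 9 (26.5%) for Epi-piPSC-FL6i against pESCLC-FL6i and 46 (79.1%) over all groups. EdgeR called 0 (12.6%) for pESCLC-FL6i against pESCLC-primary and 2 (9.45%) for Epi-piPSC-FLB2i against pESCLC-FLB2i. In 1 fit on all 14 samples these counts were 16 (36.0%) for pESCLC-FL6i against pESCLC-primary, 4 (13.1%) and 11 (37.2%) for the 2 comparisons of Epi-piPSC with pESCLC in FLB2i and FL6i, and 5 (27.9%) for Epi-piPSC-FL6i against Epi-piPSC-FLB2i. Scaling to total reads outside the mitochondrial block gave 25 (41.3%) for Lv-piPSC-F against pESCLC-F. For Epi-piPSC-FLB2i against pESCLC-FLB2i, that scaling (10.7%), total reads (10.9%) and a filter of 50 (11.9%) each gave 2. The cause of these shifts was not tested.

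Leaving out 1 sample gave 0 to 18 calls (2.43% to 43.5% of all genes) for pESCLC-FLB2i and 0 to 50 (0% to 54.1%) for pESCLC-FL6i against pESCLC-primary, and 0 to 35 (0% to 54.1%) for Lv-piPSC-F against pESCLC-F. It gave 0 to 25 (0% to 47.3%) for Epi-piPSC-FLB2i against pESCLC-FLB2i, 0 to 61 (0% to 72.6%) for Epi-piPSC-FL6i against pESCLC-FL6i, 9 to 41 (51.6% to 60.4%) for Epi-piPSC-FL6i against Epi-piPSC-FLB2i and 18 to 62 (59.4% to 81.8%) over all groups. Scaling to total reads moved the median log2 fold change of all genes from 0.02 to -0.14 for pESCLC-F and from -0.04 to 0.10 for pESCLC-FL6i against pESCLC-primary, and from -0.05 to -0.13 for Epi-piPSC-FL6i against pESCLC-FL6i. A threshold of 4000 took in 246 genes and a median of 24.7% of reads, and 16000 took in 17 genes and 5.91%. When each sample was left out of the choice, the median share was 12.8% to 18.1%, the highest without the passage 9 pESCLC-FL6i sample. Choosing 71 genes by their lowest share of reads shared 68 of them. Groups of 2 samples limit every test, and no group was large enough for a test of outlying samples.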
